A study of Mus musculus with 24 samples.

Results

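The comparison set thoracic aortas of mice that ate chow with rofecoxib against those of mice that ate plain chow, over all genes with enough counts to be tested. Its members are the 8 libraries whose column names start with rofecoxib_rep and the 8 that start with control_rep, 16 of the 24 libraries of the series. All came from adult male wildtype C57BL/6 mice of 10 to 12 weeks, housed in groups with food at will. Feeding lasted 3 weeks, at 50 mg/kg/day of rofecoxib in the treated group and with no drug added in the controls, and collection was at ZT 11. The other 8 libraries, from mice on celecoxib chow, entered the filter on low counts, the scaling and the estimate of the spread, but not the contrast. Libraries of a group are described as biological replicates, though no label names an animal, and the p-values measure the spread between these samples. Genes and gene groups are described by their change with rofecoxib, with and without the library rofecoxib 2, and a called gene given with no value for the fit without that library kept its call there unless stated.

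Rofecoxib is a nonsteroidal anti-inflammatory drug that inhibits cyclooxygenase-2, the product of Ptgs2, in preference to cyclooxygenase-1. Cyclooxygenases turn arachidonic acid into the precursor of prostaglandins, prostacyclin and thromboxane, which act on vessel tone, platelets, pain and inflammation. The wall of the thoracic aorta holds an endothelial lining, layers of smooth muscle between sheets of elastin, and an adventitia of fibroblasts, macrophages and nerves with fat around it, and a bulk library reads all of them at once. A lower level of a gene can therefore come from fewer cells of a type or from less RNA per cell, and these cannot be told apart here.

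The 16 libraries carried 21656610 to 21687906 counts, so depth was nearly equal, and their mean correlation with libraries of their own group was 0.971 to 0.988 over genes on log2 CPM. The smooth muscle gene Myh11 lay between 7933 and 13063 CPM (counts relative to TMM-scaled library size) and the endothelial gene Pecam1 between 192 and 430.2 CPM. Library rofecoxib 2 stood apart in heart muscle transcripts, with a cardiac marker score (mean log2 CPM of 8 markers) of 5.29 against 1.22 to 2.94 in the controls. Control 6 stood apart in fat transcripts, with a white and general adipocyte score of 7.87 and a brown adipocyte score of 5.96, the highest of the 16 libraries. The numbers that end the sample titles run in a separate block for each group, with no word on their meaning, and any handling order they follow cannot be told apart from diet.

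The 4 promoter windows below are shown first, and their genes were among the 12 with the smallest p in their direction. Genes were taken in order of p, and those with no start site in the RefSeq promoter table were passed over. Each is the 250 bases before the start that RefSeq lists on GRCm38.p6, read 5′ to 3′ on the gene's strand. Capitals mark the GC box, the letters GGGCGG on either strand (CCGCCC is its reverse), which may overlap itself. Olfml3 and Hic1 were lower and Snx4 and Rassf1 higher with rofecoxib. In 6 genes, Aifm3, E2f1, Lin52 and Tspan11 among them, the window is not shown because it shares at least 20 bases with an annotated GENCODE transcript of the gene.
Olfml3, chr3:103738002-103738251, minus strand: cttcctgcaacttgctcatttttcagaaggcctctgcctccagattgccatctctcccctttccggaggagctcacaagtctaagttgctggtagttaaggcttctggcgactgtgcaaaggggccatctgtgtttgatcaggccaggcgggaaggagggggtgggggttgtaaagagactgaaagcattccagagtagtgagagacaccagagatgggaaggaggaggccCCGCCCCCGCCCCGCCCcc
Hic1, chr11:75170256-75170505, minus strand: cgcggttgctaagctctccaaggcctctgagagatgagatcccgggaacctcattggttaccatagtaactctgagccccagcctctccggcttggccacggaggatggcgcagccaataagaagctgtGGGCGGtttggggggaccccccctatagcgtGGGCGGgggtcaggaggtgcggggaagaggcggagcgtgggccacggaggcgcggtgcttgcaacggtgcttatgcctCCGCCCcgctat
Snx4, chr16:33251206-33251455, plus strand: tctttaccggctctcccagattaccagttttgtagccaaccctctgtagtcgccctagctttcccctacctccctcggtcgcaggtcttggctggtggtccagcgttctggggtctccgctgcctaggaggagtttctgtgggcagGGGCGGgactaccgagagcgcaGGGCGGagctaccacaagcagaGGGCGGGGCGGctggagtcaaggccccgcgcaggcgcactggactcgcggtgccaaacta
Rassf1, chr9:107551305-107551554, plus strand: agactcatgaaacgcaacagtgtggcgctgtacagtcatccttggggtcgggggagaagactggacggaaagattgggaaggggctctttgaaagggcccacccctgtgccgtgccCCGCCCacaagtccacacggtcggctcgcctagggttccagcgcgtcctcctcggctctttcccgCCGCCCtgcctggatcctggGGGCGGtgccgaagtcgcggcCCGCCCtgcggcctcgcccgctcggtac
The windows of Olfml3 and Hic1 held 3 GC boxes each and those of Snx4 and Rassf1 held 4 each, with a GC content of 57.6%, 64.4%, 64% and 67.2%. Over all genes tested, 9923 matched a RefSeq window by symbol, and 58.3% of these held a GC box. Of the genes called higher with rofecoxib 253 matched and 62.5% held one, and of those called lower 289 matched and 61.6% held one. The median GC content of the window was 61.2% for the genes called higher, 60.4% for those called lower and 60% for all. The CCAAT letters, on either strand, stood in 37.2% and 39.4% of the windows of higher and lower genes and in 36.1% of all. These shares are a description with no test.

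By the quasi-likelihood test of edgeR, 766 genes out of 14451 passed, 5.3% of those tested, with 351 higher (2.43%) and 415 lower (2.87%) at an adjusted p under 0.05. Without rofecoxib 2, 401 of 14515 genes were called (2.76%), 184 higher (1.27%) and 217 lower (1.5%), and 383 of these belonged to the 766. Changes were small. The median absolute log2 fold change of the called genes was 0.27, and 11 passed 2-fold, 5 higher and 6 lower. In 29 genes (0.201%) every rofecoxib library lay above every control, and in 53 (0.367%) every one lay below.

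The genes called higher had transcripts poor in G and C and those called lower had transcripts rich in them. The median transcript GC content was 45.3% for higher, 56.7% for lower and 50.9% for all genes tested that had a GC value. When the genes were split into 5 equal classes by GC content, the lowest class had 179 of 2815 called higher (6.36%) and 6 lower (0.213%), and the highest had 4 called higher (0.142%) and 234 lower (8.31%). Across 14075 genes, which are not independent, log2 fold change and GC content had a Spearman's rho of -0.46, as described over genes that share their libraries, and leaving out rofecoxib 2 gave -0.46 too. The GC slope of a library, in log2 CPM per unit of GC fraction, ran from -0.88 to 1.55 in the controls (median 0.08) and from -2.91 to -0.15 with rofecoxib (median -0.97), so the groups overlapped. When each library's GC trend was removed, 216 genes were called (1.49%), 105 higher (0.727%) and 111 lower (0.768%), and 161 of these belonged to the 766. With that correction and without rofecoxib 2 the count was 110 (0.758%), 55 higher (0.379%) and 55 lower (0.379%). A lower GC slope therefore moved with the group, and its part in the calls that were lost was not tested. Counts of gene groups after this correction are to be read against 0.727% higher and 0.768% lower, and those before it against 2.43% and 2.87%.

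**Figure D1:**
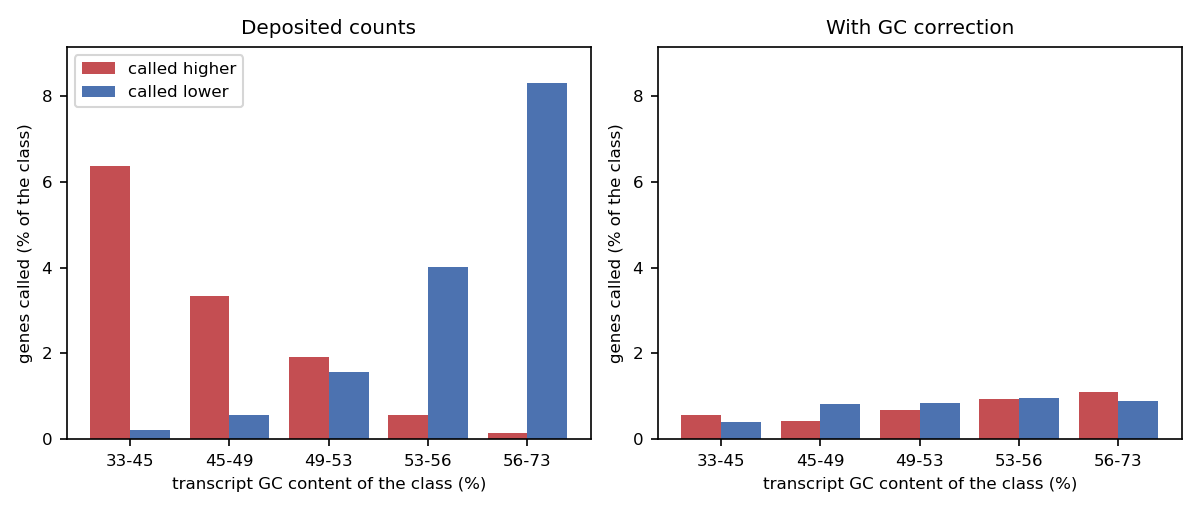
Share of genes called higher (red) or lower (blue) with rofecoxib, in % of each of 5 classes of 2815 genes ordered by transcript GC content (x axis, % GC), from the deposited counts (left) and with GC correction (right). From the lowest class to the highest, on the left the higher share falls from 6.36% to 0.142% and the lower share rises from 0.213% to 8.31%. On the right the genes called higher go from 16 in the lowest class to 31 in the highest. Those called lower go from 11 to 25 there.

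The genes with the smallest p among those called lower were regulators and matrix genes. Aifm3, a mitochondrion-linked relative of apoptosis-inducing factor (ENSMUSG00000022763, mm9 chromosome 16 from 17489502 to 17507780), lay at 2.32, 4.09 and 5.23 CPM in the controls (lowest, median, highest) and at 1.23, 1.65 and 2.19 CPM with rofecoxib. Every rofecoxib library was below every control, and the log2 fold change was -1.27 ± 0.18 (SE; edgeR adjusted p = 0.000809, and 0.00207 without rofecoxib 2). E2f1, a transcription factor of cell cycle entry (ENSMUSG00000027490, mm9 chromosome 2 from 154384941 to 154395830), lay at 3.85, 4.06 and 4.83 CPM in the controls and at 2.51, 2.96 and 3.11 with rofecoxib. The groups did not overlap, and the change was -0.54 ± 0.08 (edgeR adjusted p = 0.00138). Sorcs2, a sorting receptor of the Vps10 family, went from 30.4, 36.2 and 44.0 to 17.9, 22.7 and 27.3 CPM, again without overlap (-0.69 ± 0.11, edgeR adjusted p = 0.00192). Olfml3, a secreted olfactomedin-domain protein of the matrix, went from 64.1, 80.1 and 100.4 to 34.5, 48.3 and 58.9 CPM without overlap (-0.72 ± 0.11, edgeR adjusted p = 0.00197). Its lowest value, 34.5 CPM, was that of rofecoxib 2, and without it the change was -0.66 (edgeR adjusted p = 0.00455). Il33, a nuclear alarmin cytokine of barrier and stromal cells, went from 26.3, 33.3 and 47.9 to 19.2, 23.3 and 26.2 CPM, and every rofecoxib library lay below every control. Its change was -0.58 ± 0.11 (edgeR adjusted p = 0.0103) and, with GC correction, -0.68 (edgeR adjusted p = 0.00384). Fmo1, a flavin monooxygenase that oxidises drugs and nitrogen compounds, went from 166, 223 and 344 to 113, 139 and 183 CPM, and 7 of 8 rofecoxib libraries lay below the lowest control (-0.70 ± 0.13, edgeR adjusted p = 0.0082). Hic1, a transcriptional repressor of mesenchymal progenitors, was at a log2 fold change of -0.72 (edgeR adjusted p = 0.00658), with 7 of 8 libraries below the lowest control. All 7 of these genes kept their calls in each of the 16 fits without 1 library of these groups and with GC correction.

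Among the genes called higher, the smallest p belonged to Lin52, a subunit of the DREAM complex that represses cell cycle genes in resting cells (ENSMUSG00000085793, mm9 chromosome 12 from 85792256 to 85872685). It lay at 17.8, 19.2 and 22.3 CPM in the controls and at 23.7, 25.4 and 27.7 with rofecoxib, so the groups did not overlap. The change was 0.37 ± 0.06 (edgeR adjusted p = 0.00197, and 0.00313 without rofecoxib 2). Snx4, a sorting nexin of endosome recycling, went from 58.3, 68.4 and 74.6 to 77.3, 80.2 and 83.1 CPM without overlap (0.23 ± 0.04, edgeR adjusted p = 0.0062). Rbm3, an RNA-binding protein induced by cold, went from 141.5, 152.9 and 163.3 to 164.2, 183.5 and 193.5 CPM, likewise without overlap (0.26 ± 0.05, edgeR adjusted p = 0.00658). Cd46, a complement regulator that in mice is known mainly from the testis, was scarce, and went from 0.73, 0.96 and 1.28 to 1.41, 1.71 and 2.33 CPM without overlap (0.83 ± 0.17, edgeR adjusted p = 0.0123). Anxa5, a calcium-dependent binder of phosphatidylserine, went from 299, 312 and 333 to 326, 347 and 369 CPM, and its lowest rofecoxib value was that of rofecoxib 2 (0.15 ± 0.03, edgeR adjusted p = 0.0119). Rassf1, a scaffold of Hippo and microtubule regulation, rose by 0.32 ± 0.06 (edgeR adjusted p = 0.00918). Tmsb4x, the abundant actin-sequestering thymosin, went from 2502, 2686 and 2931 to 2996, 3123 and 3407 CPM without overlap (0.23 ± 0.04, edgeR adjusted p = 0.00918). All 7 genes kept their calls in each fit without 1 library, and all but Tmsb4x with GC correction, where Tmsb4x was at 0.16 (edgeR adjusted p = 0.0871). Reads of Tmsb4x, ribosomal proteins, calmodulins and actins may be shared with near-identical copies.

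**Figure D2:**
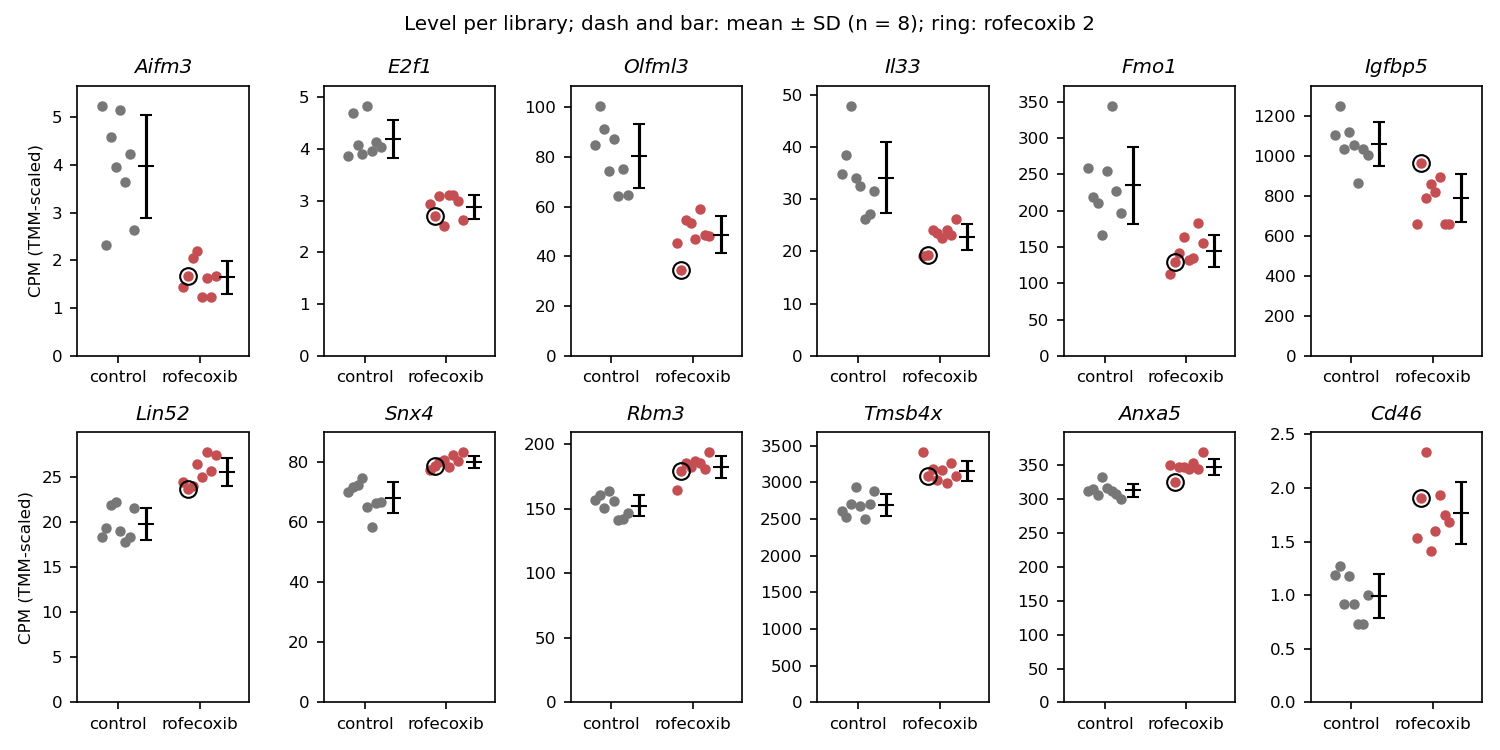
Level of 12 genes per library, in CPM on a linear axis from 0, with 8 points per group, the mean and SD beside them and a ring around rofecoxib 2. In Aifm3, E2f1, Olfml3 and Il33 every rofecoxib point lies below every control, and in Lin52, Snx4, Rbm3, Tmsb4x and Cd46 every one lies above.

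Some families of matrix genes held a larger share of lower calls than the 2.87% over all genes, and others did not. Of 37 other collagens tested, 4 were called lower and none higher (10.8% of the list called), with a median log2 fold change of -0.11 against -0.0002 over all genes. With GC correction 1 was called and the median was -0.03, and without rofecoxib 2 there were 2 calls and a median of -0.09. Col1a2, the second chain of type I collagen, went from 3238, 4727 and 5135 to 3020, 3610 and 3987 CPM, with 2 of 8 rofecoxib libraries below the lowest control (-0.35 ± 0.09, edgeR adjusted p = 0.036, and 0.0629 without rofecoxib 2). Col16a1, of the fibril-associated collagens, fell by 0.34 (edgeR adjusted p = 0.0196), Col8a2, a network-forming short chain, by 0.53 (edgeR adjusted p = 0.0293, and 0.0535 without rofecoxib 2), and Col27a1, a fibrillar chain, by 0.29 (edgeR adjusted p = 0.0481). Of 25 collagen-modifying and crosslinking enzymes 3 were lower and none higher (12% of the list called, median -0.11, and -0.06 with GC correction): Adamts2, the procollagen N-proteinase, Loxl3, a lysyl oxidase, and Bmp1, the procollagen C-proteinase. Adamts2 went from 237.5, 327 and 356 to 215, 242 and 265.5 CPM (-0.37 ± 0.08, edgeR adjusted p = 0.0164), and was the 1 of the 3 that kept its call with GC correction, while Bmp1 was not called without rofecoxib 2 (edgeR adjusted p = 0.0717). Fmod, a small proteoglycan that binds fibrillar collagen, went from 212, 305 and 336 to 114, 179.5 and 243 CPM, with 6 of 8 libraries below the lowest control (-0.75 ± 0.16, edgeR adjusted p = 0.0153, and 0.0298 without rofecoxib 2). Fbln7 of the fibulins (-0.51 ± 0.10, edgeR adjusted p = 0.0119) and Smoc2, a secreted modular calcium-binding protein (-0.51 ± 0.11, edgeR adjusted p = 0.0182), fell and kept their calls with GC correction and without rofecoxib 2. Fmod was the 1 called of 12 small leucine-rich proteoglycans, Fbln7 the 1 of 16 elastic fibre genes and Smoc2 the 1 of 22 basement membrane genes. None of 19 glypicans, syndecans and large proteoglycans was called by edgeR, with 3 at an unadjusted p under 0.05 and none called by DESeq2. Over all 14451 genes tested, 3916 were at an unadjusted edgeR p under 0.05.

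Enzymes that build the chains of heparan and chondroitin sulphate had 5 of 51 members lower and none higher (median -0.11, and -0.07 with GC correction). They were Chpf and Xylt2, which polymerise and start the chains, Chst3 and Chst2, which add sulphate, and Ndst2, which removes acetyl groups and adds sulphate. Chpf went from 137, 158.9 and 180.9 to 112.6, 123.3 and 138.2 CPM, with 6 of 8 libraries below the lowest control (-0.34 ± 0.07, edgeR adjusted p = 0.0147). Without rofecoxib 2 it was at -0.32 (edgeR adjusted p = 0.0301) and with GC correction at -0.16 (edgeR adjusted p = 0.113). Chst3 went from 125.1, 154.3 and 183.9 to 109.3, 119 and 133.7 CPM, with 5 of 8 libraries below every control (-0.37 ± 0.08, edgeR adjusted p = 0.0187). Without rofecoxib 2 Chpf and Chst3 were the 2 called members, and with GC correction Chst3 and Chst2. Metalloproteinases of the MMP, ADAM and ADAMTS families had 6 of 46 members lower and 1 higher (median -0.10), and 3 lower after GC correction (median -0.06). Adamtsl2, an ADAMTS-like protein that binds fibrillin and TGF-beta binding proteins, went from 30.4, 45.6 and 64.9 to 18.9, 28.3 and 33.2 CPM (-0.76 ± 0.16, edgeR adjusted p = 0.0147, held in every fit without 1 library and after GC correction). Mmp19, a metalloproteinase, fell by 0.54 (edgeR adjusted p = 0.0311) and was not called without rofecoxib 2 (edgeR adjusted p = 0.0538). Adamts6 was the member that rose, by 0.51 (edgeR adjusted p = 0.0454), and it too was not called without rofecoxib 2 (edgeR adjusted p = 0.063).

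Several secreted proteins and receptors of the stroma were called lower as well. Igfbp5 and Igfbp6, which bind insulin-like growth factors, were the 2 of 17 IGF axis genes called, and 1 of 17 was with GC correction. Igfbp6 was at -0.45 (edgeR adjusted p = 0.0428, and 0.0722 without rofecoxib 2). Igfbp5 went from 865.5, 1046 and 1251 to 661, 806 and 967 CPM, its highest value that of rofecoxib 2, and 6 of 8 libraries lay below every control (-0.42 ± 0.09, edgeR adjusted p = 0.0154). Serpinf1, an antiangiogenic serpin, went from 320.4, 409 and 470.2 to 196.6, 294 and 375 CPM (-0.48 ± 0.12, edgeR adjusted p = 0.0306), and its call ended without rofecoxib 2 (edgeR adjusted p = 0.0501). Tgfbi, a cell adhesion protein induced by TGF-beta, was at -0.54 (edgeR adjusted p = 0.0458) and Comp, a cartilage oligomeric matrix protein, at -0.42 (edgeR adjusted p = 0.0376), and neither was called without rofecoxib 2 (edgeR adjusted p = 0.0756 and 0.056). Wnt5a, a noncanonical Wnt ligand, was at -0.54 (edgeR adjusted p = 0.0323, and 0.056 without rofecoxib 2). With GC correction Serpinf1 (edgeR adjusted p = 0.0909), Tgfbi (0.09), Comp (0.164) and Wnt5a (0.0617) were not called, while F3 was (0.0319). Tgfbi and Comp were the 2 called of 35 matricellular genes (5.71%, against 5.3% over all genes), and none was with GC correction. Wnt5a was 1 of 2 called among 46 Wnt genes (4.35%). Ephb2, a receptor of B-type ephrins, went from 9.71, 11.8 and 14.9 to 6.17, 8.44 and 9.50 CPM, with no overlap between the groups (-0.58 ± 0.11, edgeR adjusted p = 0.00976), and held in every fit without 1 library and after GC correction. F3, the tissue factor that starts coagulation, went from 183, 199 and 242 to 92.8, 132.2 and 208 CPM, with 7 of 8 libraries below every control (-0.55 ± 0.13, edgeR adjusted p = 0.024), a call lost in 3 of 16 fits (edgeR adjusted p = 0.0572 without control 5).

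Lysosomal genes had 7 of 51 members lower and none higher (median -0.12, with 40 of 51 below zero). Without rofecoxib 2 there were 5 (median -0.09), and with GC correction 3 (median -0.08). Hexa, the beta-hexosaminidase alpha subunit, went from 130.1, 135.2 and 148 to 97.7, 115.6 and 124.3 CPM, and every rofecoxib library lay below every control (-0.26 ± 0.06, edgeR adjusted p = 0.0182). Cln3, a lysosomal membrane protein, was at -0.24 (edgeR adjusted p = 0.0212), Smpd1, the acid sphingomyelinase, at -0.18 (edgeR adjusted p = 0.0269) and Arsb, which removes sulphate from dermatan and chondroitin sulphate, at -0.27 (edgeR adjusted p = 0.0323). Laptm5 of leukocyte lysosomes, at -0.61 (edgeR adjusted p = 0.036, and 0.0629 without rofecoxib 2), also stands in the macrophage list. The macrophage and monocyte list had 1 of 28 members called lower and 24 below zero (median -0.41, -0.40 with GC correction and -0.32 without rofecoxib 2, the 1 call ending in both), with a score of 3.17 to 3.67 log2 CPM in the controls and 2.38 to 3.41 with rofecoxib. Its defining member Mrc1 was at -0.42 (edgeR adjusted p = 0.153). The list's lower score ran beside that of the lysosomal genes, and its part in their change was not tested. C5ar1, the receptor of complement C5a on myeloid cells, went from 2.96, 4.98 and 6.51 to 1.63, 2.81 and 3.72 CPM (-0.79 ± 0.20, edgeR adjusted p = 0.0323, and 0.057 without rofecoxib 2).

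Of 32 genes for receptors and ligands of vasoactive hormones 3 were lower and 1 higher (12.5% called against 5.3% over all genes, median -0.07), and 1 was lower without rofecoxib 2. P2ry6, a receptor of uridine diphosphate, went from 23.8, 28.7 and 35.8 to 17.6, 21.4 and 30.5 CPM, with 7 of 8 libraries below every control (-0.40 ± 0.10, edgeR adjusted p = 0.0314, and 0.0491 without rofecoxib 2). Ptger1, a receptor of prostaglandin E2, went from 45.1, 47.8 and 59.2 to 34.6, 42.2 and 49.6 CPM, and Avpr1a, a receptor of vasopressin, was at -0.57 (edgeR adjusted p = 0.0495). Ptger1 changed by -0.25 ± 0.07 (edgeR adjusted p = 0.0454) and was the single called member among 27 prostanoid genes (3.7%, below the 5.3% of all genes), with a median of -0.15. Edn1, the precursor of endothelin-1, went up from 10.2, 11.8 and 16.3 to 13.96, 16.7 and 20.9 CPM, with 4 of 8 libraries above every control (0.44 ± 0.12, edgeR adjusted p = 0.0393). Without rofecoxib 2 the calls of Ptger1 (edgeR adjusted p = 0.07), Avpr1a (0.0815) and Edn1 (0.0502) ended, and with GC correction none of these 4 was called. The calls were lost in 5, 9, 13 and 8 of the 16 fits without 1 library for P2ry6, Ptger1, Avpr1a and Edn1. The nitric oxide and cyclic nucleotide list had 2 of 33 members higher and 1 lower (median 0.08), and 1 higher and none lower both with GC correction and without rofecoxib 2. Gucy1a3, a subunit of the nitric oxide receptor, was at 0.24 (edgeR adjusted p = 0.0395), a call lost without rofecoxib 2 (0.0645), with GC correction (0.104) and in 11 of the 16 fits. Prkaca, a catalytic subunit of protein kinase A, was at -0.27 (edgeR adjusted p = 0.0454, and 0.059 without rofecoxib 2). Pde1c, a calmodulin-dependent phosphodiesterase, was at 1.74 ± 0.44 (edgeR adjusted p = 0.0291, and 0.0226 without rofecoxib 2). Its call was lost with GC correction (edgeR adjusted p = 0.051) and in 5 of the 16 fits. The member of this list called higher with GC correction was thus neither Pde1c nor Gucy1a3. Pde1c was scarce and scattered, from 0.28 to 4.03 CPM with rofecoxib against 0.37 to 0.69, with 7 of 8 libraries above every control and 1 below.

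Splicing and translation factors that passed the test were all higher. Of 99 splicing factors 10 were higher and none lower (10.1% of the list, median 0.07), and 5 without rofecoxib 2. With GC correction 3 of the list were called higher and the median was 0.01. Their median transcript GC content was 47.1%, below the 50.9% of all genes tested. Beside Rbm3, Prpf38a went from 20.1, 21.8 and 24.2 to 23.3, 25.8 and 29.6 CPM (0.24 ± 0.05, edgeR adjusted p = 0.0196) and Prpf18, which acts in the second splicing step, from 41.8, 44.0 and 46.26 to 46.33, 49.1 and 51.4 CPM without overlap (0.15 ± 0.04, edgeR adjusted p = 0.0249). Of 65 translation factors 4 were higher and none lower, Eif4a2, Eif3m, Eef1b2 and Eif2a, at 0.13 to 0.19. With GC correction none was called, and Eif4a2 moved from 0.17 to 0.05 (edgeR adjusted p = 0.342). Of 110 chromatin regulators 9 were higher and 4 lower, and with GC correction 1 and 1. Kdm3a, a histone H3K9 demethylase, went from 35.4, 40.0 and 44.0 to 43.9, 48.8 and 57.3 CPM (0.30 ± 0.07, edgeR adjusted p = 0.0187), and Smarcc2, a scaffold of SWI/SNF remodelling complexes, from 216.9, 229.3 and 237.9 to 181.6, 205.4 and 210.2 CPM without overlap (-0.18 ± 0.03, edgeR adjusted p = 0.00918). Both kept their calls with GC correction.

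Among cytosolic tRNA synthetases and related genes, 3 synthetases were called lower and Atf4, the stress transcription factor that induces many of them, higher. Atf4 rose from 149.4, 167.7 and 191.3 to 183.7, 198.2 and 223 CPM, with 6 of 8 libraries above every control (0.26 ± 0.06, edgeR adjusted p = 0.0231). With GC correction it was at 0.34 (edgeR adjusted p = 0.0153). Mars, the methionine enzyme, fell by 0.23 (edgeR adjusted p = 0.0135), Vars, the valine enzyme, by 0.24 (edgeR adjusted p = 0.0271) and Aars, the alanine enzyme, by 0.17 (edgeR adjusted p = 0.0323). The list had 1 of 29 members higher and 3 lower (median -0.05), the same 1 and 3 without rofecoxib 2. With GC correction Mars kept its call, and Vars (edgeR adjusted p = 0.212) and Aars (0.0523) did not. Slc38a2, a glutamine transporter induced under amino acid shortage, rose from 356.9, 436.4 and 488 to 476.2, 505.7 and 641.4 CPM (0.34 ± 0.08, edgeR adjusted p = 0.0238), and held without rofecoxib 2 and with GC correction.

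**Figure D3:**
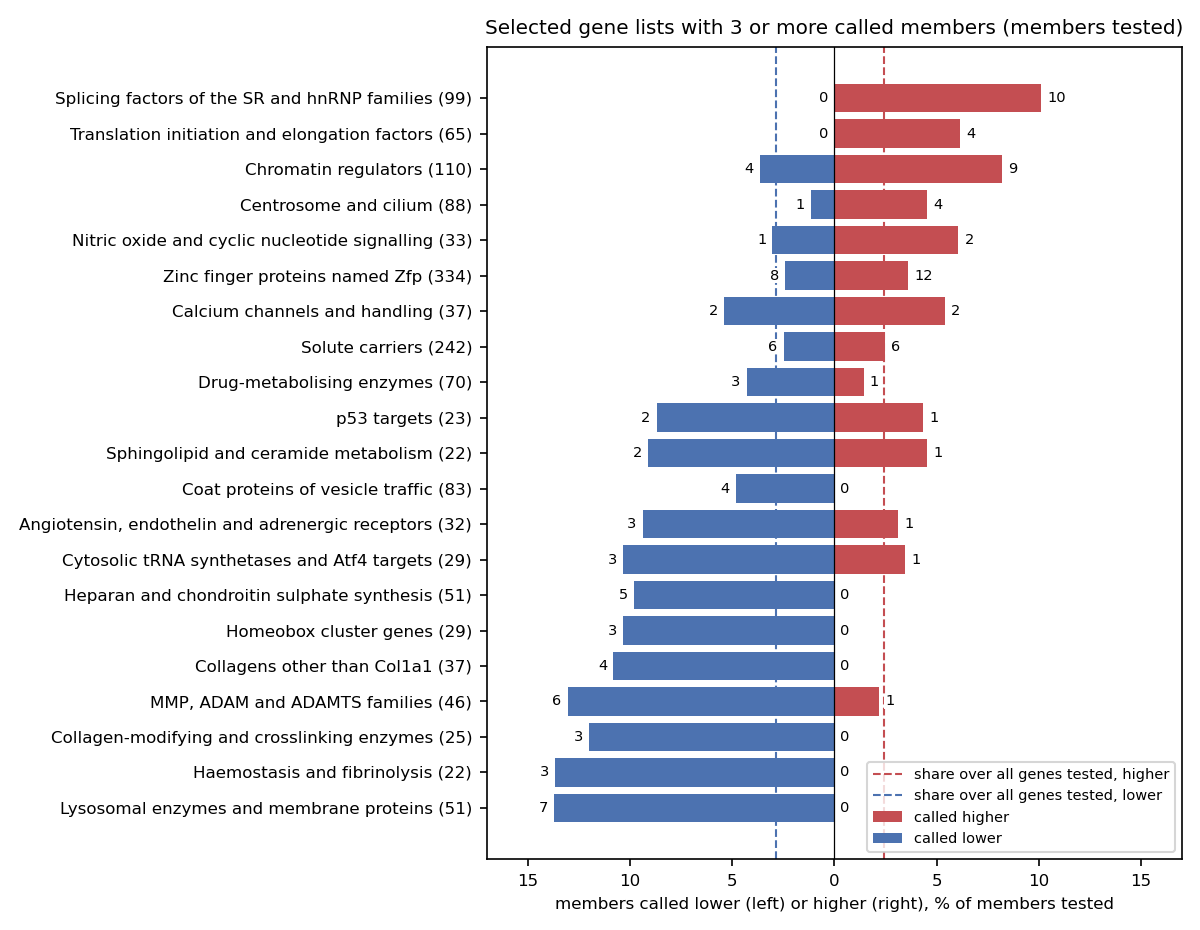
Members called lower (left, blue) or higher (right, red) as a share of the members tested (x axis, %), for selected lists with at least 3 called members, with the counts at the bar ends and the tested number after each name. Dashed lines mark the shares over all genes tested, 2.43% higher and 2.87% lower, and lysosomal genes at 7 of 51 lower and splicing factors at 10 of 99 higher lie beyond them.

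Several lists gave medians away from zero with no member called by edgeR, and their libraries overlapped. Their counts are to be read against all 14451 genes tested. Of these, 3916 had an unadjusted edgeR p under 0.05, and DESeq2 called 1493. All 18 white and general adipocyte genes tested lay below zero (median -0.43), 1 of them at an unadjusted p under 0.05 and none called by DESeq2. Control 6 lay at a score of 7.87, above the rofecoxib range of 5.32 to 6.88, and without it the median was -0.08 with 12 of 18 below zero. Of 24 genes of the tricarboxylic acid cycle 23 lay below zero (median -0.21), 5 at an unadjusted p under 0.05 and none called by DESeq2. There control 6 scored 8.12 against 6.94 to 7.10 with rofecoxib, and without it the median was -0.01 with 13 of 24 below zero. Both medians thus rested on that 1 library. Of 41 interferon-stimulated genes 37 lay above zero (median 0.20), 8 at an unadjusted p under 0.05 and 1 called by DESeq2, with scores of 2.75 to 3.34 in the controls and 2.28 to 4.13 with rofecoxib. Without rofecoxib 2 their median was 0.25 and with GC correction 0.19. Irf7, an interferon-induced transcription factor, ran from 4.58 to 8.14 CPM in the controls and from 3.02 to 12.0 with rofecoxib (0.35 ± 0.25, edgeR adjusted p = 0.382). Endothelial markers had none of 24 called (median 0.06, 1 at an unadjusted p under 0.05 and 1 called by DESeq2) and smooth muscle genes 1 of 30, Csrp1, a cytoskeletal LIM protein (0.24 ± 0.07, edgeR adjusted p = 0.0449, and 0.0689 without rofecoxib 2). With GC correction 3 of the 30 smooth muscle genes were called higher (median 0.12).

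The median of the cardiac list rested on rofecoxib 2, and the rise of its member Ryr2 did not. The cardiac list had 2 of 8 members higher and a median of 0.97, with 1 called and a median of 0.03 without that library, and 2 called with GC correction. Actc1, the cardiac actin, lay at 2.76, 3.30 and 8.89 CPM in the controls and at 3.467, 8.70 and 89.1 with rofecoxib. The highest was rofecoxib 2, and 4 of 8 rofecoxib libraries lay above every control. The change was 2.16 ± 0.56 (edgeR adjusted p = 0.0333), and 1.02 without rofecoxib 2 (edgeR adjusted p = 0.0779). Myh6, the atrial myosin heavy chain, reached 207 CPM in rofecoxib 2 against 1.63 to 6.199 in the other 7, and Tnnt2, cardiac troponin T, 79.2 against 8.11 to 12.5. Neither was called with or without rofecoxib 2 (edgeR adjusted p = 0.103 and 0.0908 with it). Ryr2, the calcium release channel that heart and smooth muscle share, went from 44.4, 48.6 and 52.1 to 50.3, 68.2 and 81.7 CPM, with 7 of 8 libraries above every control. Its change of 0.47 ± 0.10 (edgeR adjusted p = 0.0174) was 0.45 without rofecoxib 2 (edgeR adjusted p = 0.0313), and it kept its call in each of the 16 fits.

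**Figure D4:**
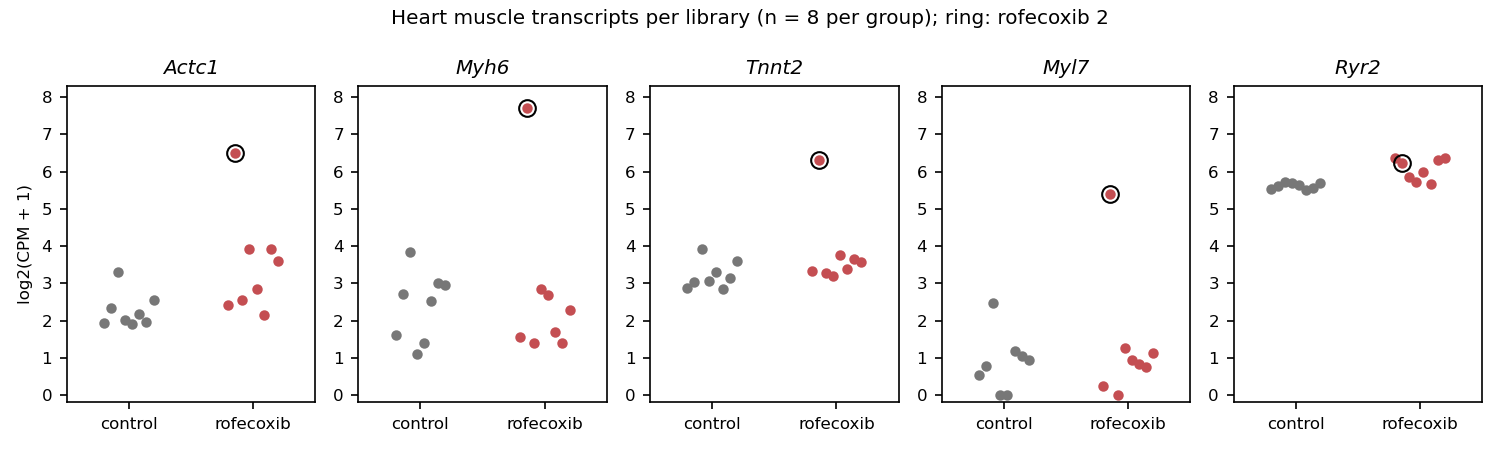
Level of 5 heart muscle transcripts per library on a log2(CPM + 1) axis, 8 points per group, with a ring around rofecoxib 2. In Actc1, Myh6, Tnnt2 and Myl7 the ringed point lies far above the others, and in Ryr2 it lies among them.

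The number of called genes moved with single libraries. Without rofecoxib 7 or 8, with the lowest GC slopes (-2.34 and -2.91), 199 and 179 genes were called. Without control 5 or 7 (1.15 and 1.29) 178 and 170 were. Without rofecoxib 4 or 5 (-0.15 and -0.22) the counts were 952 and 1031, and without control 1 or 4 (-0.88 and -0.44) 931 and 1121. The order was not strict, with 610 without control 3 (-0.43) and 335 without control 6 (1.55). Whether the slope bears on these counts was not tested. Of the 766 genes, 143 (0.99%) were called in every fit that left out 1 of the 16 libraries, 47 higher and 96 lower, and 91 of these (0.63% of the genes tested) were also called with GC correction, 28 higher and 63 lower. Of the 115 called genes examined for the text, 44 kept their calls in all 16 fits, and the call of Col1a2 was lost in 7, that of Serpinf1 in 5, that of Tgfbi in 10 and that of Laptm5 in 9.

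**Figure D5:**
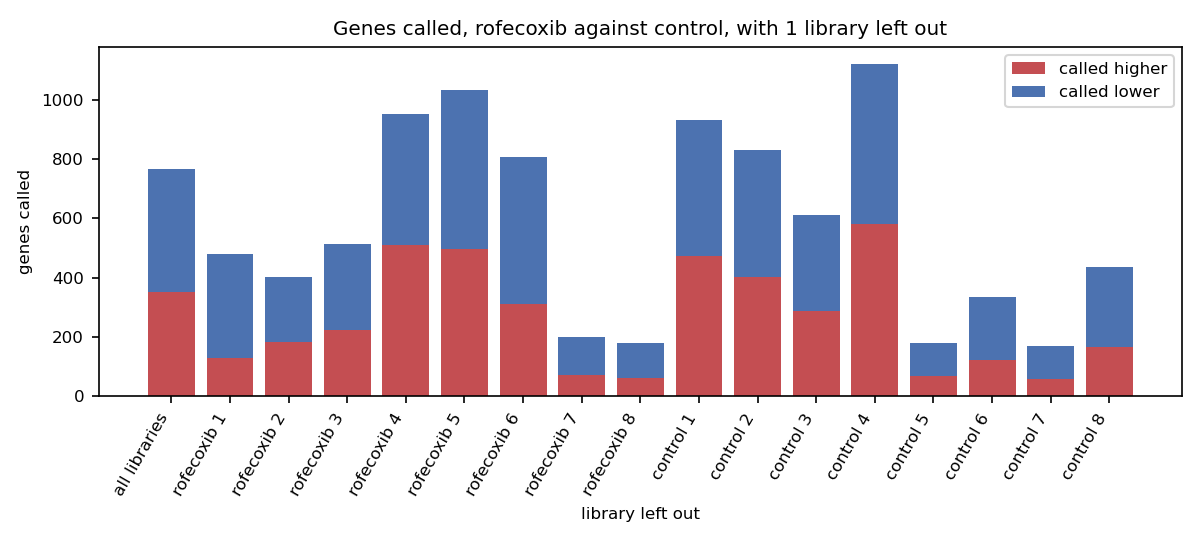
Genes called higher (red) and lower (blue) with rofecoxib, as a count on the y axis, with all libraries and with each of 16 libraries left out. The count runs from 170 without control 7 to 1121 without control 4, and is 766 with all libraries.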

How the data were processed

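Libraries were prepared from polyA RNA of mouse thoracic aorta (TruSeq), per the labels' protocols. The submitters' processing notes name CASAVA 1.8.2, STAR 2.5.1b and the mm9 build, and no counting tool. The authors deposited whole-number counts per gene for 25941 genes, with 21652432 to 21687906 per library over the 24 libraries. Totals this close had been made nearly equal by an unstated step, which would matter if counts were scaled. Strand use is not stated, so overlapping genes cannot be told apart: 23 of the 125 genes examined for the text share their span with a gene with at least 10% of their counts, among them Hic1, Ptger1, Chpf, Comp, Orai1 and Mars.

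From these counts, genes were filtered with filterByExpr, scaled by TMM (0.959 to 1.03) and tested with edgeR 4.0.16 (R 4.3.3), by a robust quasi-likelihood fit to all 24 libraries with 21 residual degrees of freedom and Benjamini-Hochberg adjustment over 14451 genes. A gene was called at an adjusted p under 0.05. The SE equals |log2 fold change| over the square root of F. Transcript GC content came from GENCODE M21 for 14075 of these genes (97.4%), and the correction used a lowess of span 0.3 per library as an offset. A list's score or level is the mean log2 CPM (prior count 2) of its tested members. Of 80 lists 76 had at least 5 genes tested. DESeq2 1.42.0 and other settings served as alternatives, and the edgeR fit was tested on simulated data.

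Named genes were the 12 smallest p and the 8 largest fold changes (average log2 CPM of at least 1) in each direction and up to 4 called members of each list, outside genes described earlier for this series. The members and lists were chosen with earlier results of these data known. Myh11, Pecam1, Myh6, Tnnt2, Myl7, Mrc1, Ucp1 and Irf7, outside this rule, were named as tissue or list checks, and Arsb and Ndst2 were named after their values were seen. Some genes that met the rule are not reported here.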

Additional observations from a re-analysis of the deposited data

Results flagged for a closer look

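Of 250 groups of 8 libraries examined, 1 per gene of the text and group, 15 held a library far from the other 7 by Dixon's criterion (6%). The criterion flags about 1 in 20 by chance. These genes were chosen from the same data, mostly by their calls, so the share cannot be read against that rate. Heart muscle transcripts stood out in rofecoxib 2, with Actc1 at 89.05 CPM (other 7 at 3.467 to 14.07), Myh6 at 207.3 (1.633 to 6.199), Tnnt2 at 79.18 (8.11 to 12.5) and Myl7 at 41.45 (0 to 1.41). Control 3 held 8.893 CPM of Actc1 (2.76 to 4.81) and 4.492 of Myl7 (0 to 1.27). In control 6, Ucp1 of brown fat was at 843.1 CPM (45.8 to 254), Pnpla3, a lipase relative, at 104.9 (7.482 to 50.4), Prkaca, a catalytic subunit of protein kinase A, at 162.5 (103.7 to 120.3), Pecam1 at 192.2 (280.9 to 339.4) and Dctn6, a dynactin subunit, at 83.29 (96.2 to 107.6). The others were Cog1 of the Golgi tethering complex in control 2, at 30.6 CPM (34.2 to 37.04), Chst2 in control 1 at 13.16 (14.39 to 15.21), P2ry6 in rofecoxib 5 at 30.51 (17.6 to 23.11) and Rassf1 in rofecoxib 7 at 21.52 (16.31 to 18.1).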

How the results depend on the processing

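The 766 genes called became 1493 with DESeq2 (691 higher, 802 lower), 294 with no filter on low counts (93 and 201), 461 with only the rofecoxib and control libraries in the fit (181 and 280), 216 with GC correction (105 and 111), and 2 with a minimum fold of 1.2 tested by glmTreat (0 higher, 2 lower). It was 215 without rofecoxib 2 and control 6 (77 and 138), and 110 with GC correction and without rofecoxib 2 (55 and 55), a setting chosen after seeing the data. Library totals gave 786 and the adipocyte score as a covariate 867. The cause of these moves was not tested. With 1 library left out the count ran from 170 to 1121, from 57 to 579 higher and from 111 to 542 lower. Those that moved it by over 1.5 times were rofecoxib 1 (479), 2 (401), 7 (199) and 8 (179) and control 5 (178), 6 (335), 7 (170) and 8 (435). No label says that a replicate number marks a shared day, litter or batch. Correlations of deviations between same-numbered rofecoxib and control libraries ran from -0.09 to 0.25, with 3 of 8 over 0.1. Whether the numbers pair the samples was not tested. A fit with the replicate block called 653 genes (309 and 344), and with block and GC correction 158 (82 and 76). Of 115 called genes examined for the text, 115 were called by DESeq2, 110 with library totals, 69 without the filter, 76 without rofecoxib 2, 50 with GC correction and 89 with the replicate block, and none reversed its sign.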

Other observations

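Further called genes belonged to lists on imprinting, calcium and retinoid signalling, GTPases and homeobox clusters. Cdkn1c, an imprinted inhibitor of the cell cycle, went from 22.1, 26.6 and 29.6 to 17.6, 20.4 and 25.4 CPM (lowest, median, highest), with 7 of 8 rofecoxib libraries below every control (-0.33 ± 0.07, edgeR adjusted p = 0.0178, and 0.0298 without rofecoxib 2), but was not called with GC correction (edgeR adjusted p = 0.178). Orai1, the store-operated calcium channel, was at -0.38 ± 0.09 (edgeR adjusted p = 0.0185, and 0.0355 without rofecoxib 2; with GC correction 0.0826). Aldh1a2, which makes retinoic acid, rose from 0.19, 0.62 and 0.998 to 0.79, 1.37 and 1.91 CPM, with 7 of 8 libraries above every control (1.19 ± 0.29, edgeR adjusted p = 0.0266), and was called without rofecoxib 2 and with GC correction. Rnd3, an atypical GTPase that loosens actin stress fibres, rose from 82.8, 115.9 and 121.8 to 131.8, 144.5 and 167.2 CPM with no overlap between the groups (0.43 ± 0.11, edgeR adjusted p = 0.0352), and was not called without rofecoxib 2 (edgeR adjusted p = 0.056). Of 29 homeobox cluster genes 3 neighbours, Hoxb3, Hoxb4 and Hoxb5, were lower by 0.57, 0.29 and 0.30 on the log2 scale, and none was called without rofecoxib 2 (edgeR adjusted p = 0.0741, 0.064 and 0.0586) or with GC correction.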
